A study of Mus musculus with 12 samples.

Results

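The genes described here are 10 genes of the unfolded protein response and the integrated stress response: Eif2ak3, Ern1, Atf6, Atf4, Xbp1, Atf3, Ddit3, Hspa5, Trib3 and Chac1. Their chromatin was examined in 12 ATAC-seq libraries, an assay in which the transposase Tn5 cuts open chromatin and fragments pile up at accessible positions. A region was counted as a member when the merged peaks of the 12 libraries placed it inside the gene or up to 10000 bp upstream of its start (GENCODE vM21, GRCm38). This gave 71 member regions of 263785 regions in all. Atf6 held 22 of them, Ern1 held 13, Atf3 held 10, Ddit3 and Eif2ak3 held 6 each, Trib3 held 5, Atf4 and Xbp1 held 3 each, Chac1 held 2 and Hspa5 held 1.

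All libraries came from primary cortical neurons of wild-type C57BL/6 mouse embryos at embryonic day 18, with 3 biological replicates in each of 4 groups. The control received PBS for 7 days. The PFF group received pre-formed fibrils of α-synuclein, the protein that aggregates in Parkinson's disease, for 7 days. The PFF+MLi-2 group also received MLi-2, which blocks the kinase activity of LRRK2, over the final 5 days, and the PFF+Rab5 ASO group received antisense oligonucleotides against the endosomal GTPase Rab5 over the final 3 days. The library descriptions of both of these groups name PBS where the titles and treatment labels name PFF, and the titles were followed. No arm with a control oligonucleotide or with either agent alone is among the samples, and peak lists do not show whether Rab5 RNA was lowered. The comparisons ask whether fibrils change access to chromatin at these genes, and whether LRRK2 inhibition or Rab5 depletion changes it in fibril-treated neurons.

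The unfolded protein response is the answer of the cell to misfolded protein in the endoplasmic reticulum. Its sensors are PERK (Eif2ak3), IRE1α (Ern1) and ATF6, which are held in check by the chaperone BiP (Hspa5). IRE1α splices the mRNA of the transcription factor XBP1, ATF6 is cleaved into a transcription factor, and PERK phosphorylates eIF2α, which lowers general translation and raises translation of ATF4. Other eIF2α kinases feed into the same step, and the shared arm is called the integrated stress response. ATF4 induces Atf3, Ddit3 (which encodes CHOP), Trib3 and Chac1. Much of this control acts on splicing, cleavage and translation, none of which ATAC-seq reads.

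The sequences below show the promoters in which response elements of the pathway were found by letter, together with that of Ddit3, whose peak differed most between PFF and PBS among the start-site regions. They are RefSeq sequences (GRCm38.p6), the 250 bases before the RefSeq start, 5′ to 3′ on the strand of the gene. Promoter entries matched 9 of the 10 genes. Capitals mark matches on either strand to TGATGNAA (the core of the element read by ATF4 with C/EBP proteins), TGACGTCA (the cAMP response element), TGACGTGG (the core of the unfolded protein response element) or the endoplasmic reticulum stress element, that is CCAAT and CCACG separated by 9 bases.
Hspa5, chr2:34771840-34772089, + strand: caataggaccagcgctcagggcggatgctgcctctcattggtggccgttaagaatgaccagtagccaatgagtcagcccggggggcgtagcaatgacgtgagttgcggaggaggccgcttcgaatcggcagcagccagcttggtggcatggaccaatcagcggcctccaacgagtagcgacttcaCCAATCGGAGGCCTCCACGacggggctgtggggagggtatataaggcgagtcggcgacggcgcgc
Atf3, chr1:191183334-191183583, - strand: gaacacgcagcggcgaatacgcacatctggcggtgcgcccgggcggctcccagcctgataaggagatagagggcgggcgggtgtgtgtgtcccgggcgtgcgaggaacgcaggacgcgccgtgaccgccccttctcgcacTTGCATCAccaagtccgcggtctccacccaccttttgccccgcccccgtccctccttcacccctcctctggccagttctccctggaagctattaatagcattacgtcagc
Chac1, chr2:119350992-119351241, + strand: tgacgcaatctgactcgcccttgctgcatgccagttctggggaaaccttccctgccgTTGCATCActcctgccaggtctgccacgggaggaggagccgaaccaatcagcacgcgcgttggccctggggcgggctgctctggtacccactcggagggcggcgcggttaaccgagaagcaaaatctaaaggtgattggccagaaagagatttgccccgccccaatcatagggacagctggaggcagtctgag
Ddit3, chr10:127290543-127290792, + strand: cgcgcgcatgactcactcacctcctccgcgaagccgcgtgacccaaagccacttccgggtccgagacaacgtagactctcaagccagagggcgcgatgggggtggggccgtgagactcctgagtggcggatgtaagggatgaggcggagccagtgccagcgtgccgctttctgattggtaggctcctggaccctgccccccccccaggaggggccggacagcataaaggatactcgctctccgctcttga

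In these windows the stress element occurred in Hspa5, 65 to 47 bases before the start, and in 0.114% of the 32536 distinct promoter windows of the table. TGATGNAA occurred in Atf3 and in Chac1, on the strand opposite to the gene in both, and in 3.40% of all windows. TGACGTCA and TGACGTGG were found in none of the 9 member windows, against 1.56% and 0.569% of all windows. The pentamer CCAAT alone, found in 33.8% of all windows, occurred 6 times in the window of Eif2ak3, 4 times in that of Hspa5, 3 times in that of Chac1, 2 times in that of Atf4, once in that of Ddit3 and not in the other 4. The windows of Hspa5, Atf3, Chac1, Ddit3, Atf4, Ern1 and Eif2ak3 lay wholly inside a peak region, while 168 of the 250 bases did for Trib3 and 36 for Xbp1. A match of letters is a description of the sequence and not evidence of binding.

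The libraries held 137417 to 184717 peaks each, and a measure of relative depth derived from the peak lists ran from 0.775 in PFF replicate 3 to 1.31 in PFF+Rab5 ASO replicate 1. The fold of a peak over its local background was ranked inside its own library, and its percentile there is the level used below. A high percentile means a peak that stands far above its surroundings. The fragment pileup at the summit was recovered from the deposited values and is subject to counting error, a pileup of 10 having an exact Poisson 95% interval of 4.80 to 18.4 and one of 80 an interval of 63.4 to 99.6. All 8 neuronal marker genes examined had a start-site peak in all 12 libraries, although that of Slc17a7, a marker of glutamatergic neurons, averaged only the 14.3rd percentile. Start-site peaks of the astrocyte genes Gfap, Aldh1l1 and Slc1a3 were present in all 12 libraries as well and that of Aqp4 in 10. Of the oligodendrocyte genes Olig1 and Mbp had a start-site peak in all 12 libraries, at mean percentiles of 88.7 and 73.9, while Mog had none. The microglial gene Csf1r had one in 7 libraries, P2ry12 in 3, and Cx3cr1 and Aif1 in none, and of the endothelial genes Cldn5 had one in 1 library and Pecam1 in none. In such bulk cultures fewer cells of a kind and less open chromatin per cell cannot be told apart.

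Each of the 10 genes had a start-site region, defined as the region within 1000 bp of a start of that gene with the highest mean percentile, and all 10 of these regions carried a peak in all 12 libraries. Of the 71 member regions 23 (32.4%) had a peak in every library, against 27.5% of all regions, and 16 (22.5%) had a peak in 1 library only, against 26.6%. Recurrence followed position. Of the 22 regions within 1000 bp of a start 14 were present in all libraries, but only 9 of the 49 farther away were. The regions found in every library had a median width of 468 bp and a median percentile of 83.7, and those found in 1 library had a median width of 67.5 bp and a median percentile of 16.2.

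**Figure D1:**
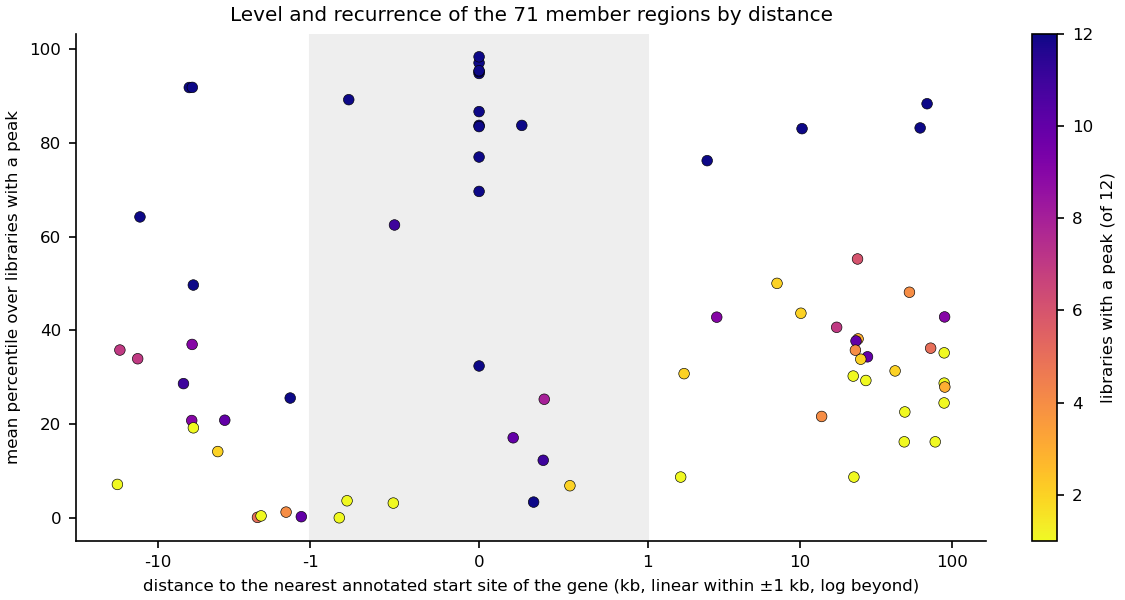
Each point is 1 of the 71 member regions, placed by its distance to the nearest annotated start of its gene (kb, linear within 1 kb and logarithmic beyond, upstream negative) and its mean percentile over the libraries with a peak, and coloured by the number of libraries with a peak. The regions found in all 12 libraries gather at the start sites and in a few places farther away, whereas most distal points below the 50th percentile were found in part of the libraries.

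Among the sensors, the start-site region of Ern1 (chr11:106487273-106488068) was the highest of all 10, between 97.2 and 99.4 in the 12 libraries. That of Eif2ak3 (chr6:70844045-70844849) lay between 93.6 and 97.0. For Eif2ak3 the group means ran from 94.2 ± 0.614 (SD, n = 3) in PBS to 96.2 ± 0.860 in PFF+Rab5 ASO, with 95.2 ± 0.594 in PFF and 96.1 ± 0.281 in PFF+MLi-2. Among the start-site regions of protein-coding genes, which rank high in general, Ern1 stood at the 87.7th percentile and Eif2ak3 at the 68.4th.

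Atf6 had a pair of regions at its start. The one over the start itself (chr1:170867506-170867965) was at 87.9, 84.8 and 79.7 in PBS, at 87.1, 83.6 and 82.5 in PFF, at 68.4, 83.9 and 85.1 in PFF+MLi-2 and at 91.6, 78.7 and 91.5 in PFF+Rab5 ASO, and all 4 groups overlapped. The other, upstream at a distance of -772 bp (chr1:170868543-170868920), had the higher mean and so counts as the start-site region. Both regions lie within 1000 bp of a start of the neighbouring gene Gm9929. The upstream region was at 91.4, 88.2 and 92.6 in PBS, at 89.0, 84.0 and 87.3 in PFF, at 95.4, 94.0 and 92.1 in PFF+MLi-2 and at 88.2, 81.2 and 87.3 in PFF+Rab5 ASO. All libraries with MLi-2 were above all PFF libraries there.

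Of the transcription factors, Xbp1 stood highest. Its start-site region (chr11:5520605-5521436) lay between 93.3 and 96.2, with group means from 94.0 ± 0.791 in PFF to 95.4 ± 0.194 in PFF+Rab5 ASO. The start-site region of Atf3 (chr1:191182979-191183722), a gene known for rapid induction by stress, lay between 78.8 and 92.4, and its group means of 86.4 ± 3.18 for PBS, 83.5 ± 4.08 for PFF, 87.1 ± 2.61 for PFF+MLi-2 and 89.7 ± 3.85 for PFF+Rab5 ASO were within the spread of the libraries. A further Atf3 region at -6253 bp, named for its neighbour after its values were seen (chr1:191224292-191224851), averaged 91.8 over the libraries, but it lies within 1000 bp of a start of the gene D730003I15Rik.

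For Atf4, the hub of the integrated stress response, the start-site region (chr15:80254908-80255771) was at 77.4, 81.2 and 77.1 in PBS, at 69.3, 75.6 and 74.2 in PFF, at 80.9, 79.4 and 79.6 in PFF+MLi-2 and at 72.2, 81.7 and 75.1 in PFF+Rab5 ASO. The PFF libraries were below every PBS and every PFF+MLi-2 library, whereas PFF+Rab5 ASO overlapped all other groups. The group means lay closer when peaks were ranked by p-value, as given with Ddit3.

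The lowest start-site region of the 10 was that of Ddit3 (chr10:127290273-127291055), which encodes the pro-apoptotic factor CHOP. It was at 76.9, 73.8 and 73.2 in PBS, at 68.1, 64.1 and 59.997 in PFF, at 71.7, 73.2 and 73.0 in PFF+MLi-2 and at 68.5, 67.8 and 65.4 in PFF+Rab5 ASO. PFF lay below PBS and below PFF+MLi-2 without overlap, PFF+MLi-2 overlapped PBS, and PFF+Rab5 ASO overlapped PFF and lay below PBS. The deposited fold there was 6.57 to 7.41 in PBS and 6.08 to 6.40 in PFF, while the summit pileup was 87, 78 and 79 fragments in PBS and 82, 81 and 72 in PFF, overlapping. A pileup near 80 is as high as that of Hspa5, so the lower percentile of Ddit3 goes with a higher local background. Where the −log10 p-value was ranked in place of the fold, the difference between PFF and PBS shrank from -10.6 to -1.89 percentile points for Ddit3 and from -5.50 to -0.252 for Atf4, and that between PFF+MLi-2 and PFF from 8.56 to 1.35 and from 6.90 to 0.352. The mean percentile of the start-site peak was likewise lower in PFF than in PBS for 7 of the 8 neuronal and all 4 astrocyte markers. It was higher in PFF+MLi-2 than in PFF for 7 of the neuronal and 3 of the astrocyte markers. Of tested protein-coding start-site regions 66.9% had the lower score in PFF than in PBS, and 67.8% the higher score in PFF+MLi-2 than in PFF. In the order PBS, PFF and PFF+MLi-2 the mean percentile was 50.9, 22.4 and 48.3 for Gad1, a marker of inhibitory neurons, and 50.7, 31.2 and 34.3 for Gfap. Between PBS and PFF it changed less for Map2 (96.3 and 95.2), Snap25 (91.2 and 91.1), Syt1 (97.4 and 97.2) and Rbfox3 (56.4 in both). The mean percentiles of the oligodendrocyte genes Mbp and Olig1 were higher in PFF than in PBS or PFF+MLi-2. The part of cell type composition in the Ddit3 result was not tested. Relative depth was 0.912 to 0.976 in PBS, 0.775 to 0.919 in PFF and 0.957 to 1.03 in PFF+MLi-2. Its part in the differences between these groups, at Ddit3 or elsewhere, was not tested. The annotated start of Gm4189 also lies within 1000 bp of this region.

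Of the target genes, Hspa5 had a single region (chr2:34771512-34772522), 1011 bp wide and between 95.8 and 98.5 in the 12 libraries. Its group means were 97.0 ± 0.575 for PBS, 96.8 ± 1.36 for PFF, 97.6 ± 0.747 for PFF+MLi-2 and 96.9 ± 0.404 for PFF+Rab5 ASO. The start-site region of Chac1 (chr2:119350830-119351505), which encodes an enzyme that degrades glutathione, lay between 93.6 and 96.6, and its group means ran from 94.8 ± 0.555 to 95.6 ± 1.48. Trib3, which encodes a pseudokinase, had one region over its start that averaged 83.5 (chr2:152343761-152344228) and another 253 bp inside the gene that averaged 83.7 (chr2:152343434-152343717). The latter, which counts as the start-site region, had group means of 86.2 ± 2.85 for PBS, 84.6 ± 4.93 for PFF, 80.3 ± 1.93 for PFF+MLi-2 and 83.8 ± 2.96 for PFF+Rab5 ASO.

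**Figure D2:**
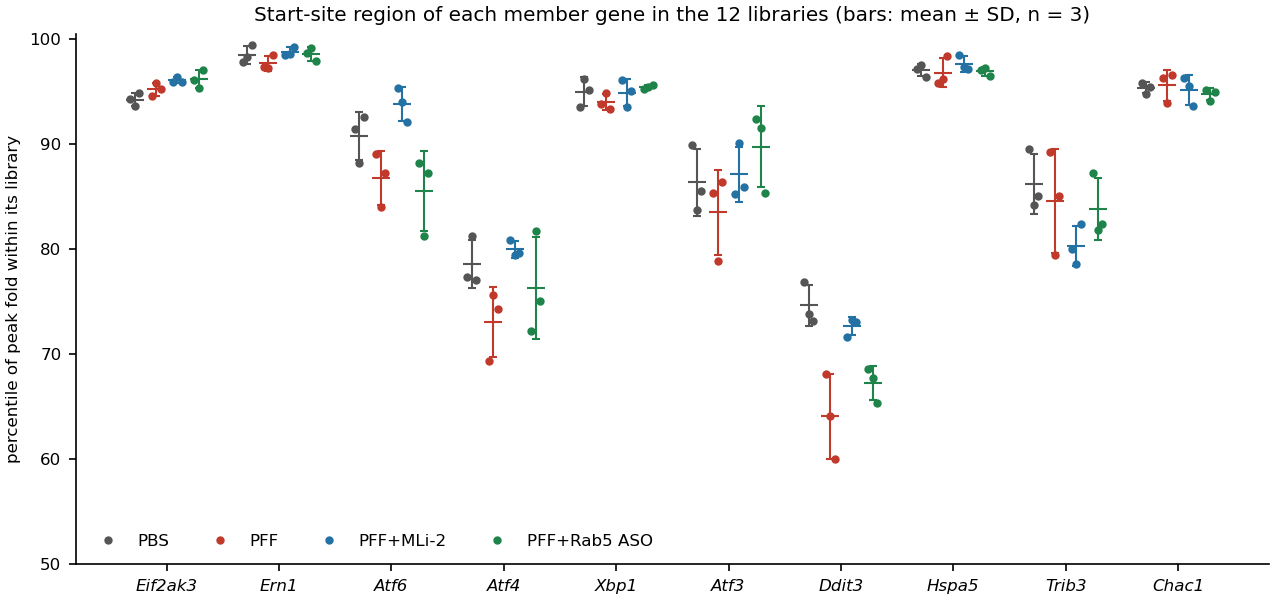
The percentile of the start-site peak of each gene within its library (vertical axis, from 50 to 100) is plotted for the 12 libraries, coloured by group, with the mean and SD of 3 libraries. Ern1, Hspa5, Eif2ak3, Chac1 and Xbp1 sit above 93 in every library, and the PFF points of Ddit3 lie below its PBS and PFF+MLi-2 points.

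In order of mean percentile over all libraries the start-site regions ran Ern1 (98.4), Hspa5 (97.1), Eif2ak3 (95.4), Chac1 (95.2), Xbp1 (94.8), Atf6 (89.2), Atf3 (86.7), Trib3 (83.7), Atf4 (77.0) and Ddit3 (69.6). Ern1 and Hspa5, Eif2ak3, Chac1 and Xbp1, and Atf6, Atf3 and Trib3 differed from their neighbours in this order by less than the largest SD within a group, while the other steps were larger. The start-site regions of 15195 protein-coding genes with such a region had a median of 90.7, and 88.5% of them were present in all 12 libraries. The median of the 10 genes was 92.0. Placed among them, the 10 genes ran from the 21.6th percentile for Ddit3 and the 27.6th for Atf4 to the 78.4th for Hspa5 and the 87.7th for Ern1.

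Peak height was tested with limma on normal scores of the within-library ranks, over the 72465 regions called in each of the 12 libraries, of which 23 were member regions, with Benjamini-Hochberg adjustment over all regions. In PFF against PBS no member region passed an adjusted p of 0.05, and neither did any of all regions (0.0%). At an unadjusted p below 0.05 there were 4 of the 23, against 9.72% of all regions. Of the 23, 10 had the higher score in PFF, against 47.4% of all regions, and the median difference was -0.04 SD units of the normal score against -0.02 over all regions. The PFF and PBS libraries did not overlap in 6 member regions, 3 higher and 3 lower in PFF, against 14.6% of all tested regions.

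The region with the largest statistic in PFF against PBS was an intronic one of Atf6 (chr1:170807574-170808013). It was at 69.2, 40.5 and 49.8 in PBS and at 72.1, 72.6 and 76.3 in PFF, so every PFF library was above every PBS library. The difference was 0.69 ± 0.24 (SE) SD units with an adjusted p of 0.391 by limma. The Ddit3 start-site region followed, with a difference of -0.50 ± 0.20 and an adjusted p of 0.455. The third was a region upstream of Trib3 at -5882 bp (chr2:152349914-152350199), at 54.8, 5.20 and 41.0 for PBS, 55.6, 62.1 and 61.8 for PFF, 48.0, 39.6 and 44.9 for PFF+MLi-2 and 63.1, 64.7 and 55.1 for PFF+Rab5 ASO. PBS replicate 2 was far below the other libraries there, with a summit pileup of 9 fragments, and the difference between PFF and PBS of 0.79 ± 0.32 had an adjusted p of 0.462. The sequence of this region is shown because it was the only one to hold TGATGNAA among the member regions searched, none of them longer than 286 bases, printed on the strand of Trib3 with the match in capitals.
Trib3 upstream region, chr2:152349914-152350199, - strand: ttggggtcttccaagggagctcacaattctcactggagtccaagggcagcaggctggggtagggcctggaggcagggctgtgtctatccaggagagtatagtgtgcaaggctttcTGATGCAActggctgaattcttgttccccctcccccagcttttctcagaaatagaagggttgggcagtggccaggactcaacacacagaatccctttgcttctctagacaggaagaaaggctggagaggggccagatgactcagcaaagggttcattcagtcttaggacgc

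In PFF+MLi-2 against PFF no member region and none of all regions (0.0%) passed the adjusted p of limma, with 4 of the 23 and 11.4% of all regions at an unadjusted p below 0.05. The score was higher with MLi-2 in 14 of the 23 regions, against 51.7% over all regions, with a median difference of 0.17 SD units against 0.01. Among tested protein-coding start-site regions it was higher in 67.8%, with a median difference of 0.10. The libraries did not overlap in 7 regions, 4 higher and 3 lower with MLi-2, against 18.1% of all tested regions. The largest statistics were those of the region upstream of Atf6 near Gm9929 (0.62 ± 0.20, adjusted p of 0.319 by limma), the start-site region of Ddit3 (0.49 ± 0.18, adjusted p = 0.366) and an intronic region of Atf3 (chr1:191172564-191172773). The latter was at 89.4, 85.6 and 92.2 in PFF and lower, at 79.9, 67.7 and 81.7, in PFF+MLi-2 (-0.58 ± 0.24, adjusted p = 0.414 by limma), while PBS spread from 52.7 to 92.2. The start-site region of Atf4, with no overlap between these groups, had a difference of 0.44 ± 0.20 and an adjusted p of 0.434 by limma. PFF+MLi-2 and PBS were each set against the same 3 PFF libraries, so that a low value in those libraries enters both comparisons.

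In PFF+Rab5 ASO against PFF 2770 of all regions (3.82%) passed the adjusted p of limma and no member region did. At an unadjusted p below 0.05 there were 2 of the 23, against 21.1% of all regions. The score was higher with the antisense oligonucleotide in 12 of the 23, against 51.0% over all regions. The libraries did not overlap in 4 regions, 2 in each direction, against 25.8% of all tested regions. By either count member regions differed between these groups at a lower share than regions in general, and the difference between the shares was not tested. However, 14 of the 23 lay within 1000 bp of a start, and among tested protein-coding start-site regions 7.70% had an unadjusted p below 0.05 by limma.

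The largest statistic in this comparison belonged to a region upstream of Ddit3 at -1355 bp (chr10:127288690-127289419), which lies within 1000 bp of starts of Mbd6 and Gm20492. It was at 25.3, 25.1 and 33.0 in PBS, at 23.1, 8.75 and 6.87 in PFF, at 14.4, 32.3 and 16.6 in PFF+MLi-2 and at 42.2, 32.9 and 46.0 in PFF+Rab5 ASO. The PFF+Rab5 ASO libraries were above all PFF libraries, by 0.85 ± 0.22 SD units with an adjusted p of 0.0624 by limma, and the PFF libraries were below all PBS libraries. With all 12 libraries in 1 fit the adjusted p was 0.0418, past the threshold, in a fit that called 3.96% of all regions. The summit pileup there was 45 to 54 fragments in PFF and 56 to 62 in PFF+Rab5 ASO, whose relative depth was also higher (1.05 to 1.31 against 0.775 to 0.919), and the part of depth in this result was not tested. At the start of Ddit3 itself the level differed by only 3.14 percentile points between these groups.

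The second statistic belonged to an intronic region of Eif2ak3, 2455 bp from an internal start (chr6:70881016-70881203). It was at 81.3, 87.0 and 90.8 in PBS, at 82.1, 86.7 and 75.7 in PFF, at 69.3, 79.9 and 49.8 in PFF+MLi-2 and at 65.6, 73.9 and 72.3 in PFF+Rab5 ASO. Both treated groups lay below PBS without overlap, and PFF+Rab5 ASO also lay below PFF (-0.54 ± 0.22, adjusted p of 0.196 by limma). Against PBS the difference was -0.85 ± 0.26 with an adjusted p of 0.111 in PFF+Rab5 ASO and -0.82 ± 0.32 with an adjusted p of 0.844 in PFF+MLi-2, both by limma. The third was an exonic region of Ern1 (chr11:106418670-106419059), at 91.5 ± 2.52 in PFF and 84.8 ± 6.45 in PFF+Rab5 ASO with overlap (-0.48 ± 0.25, adjusted p = 0.308 by limma).

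A second Ern1 region, in the 3′ untranslated part of its last exon (chr11:106397924-106398138), was named after its values were seen. It was at 27.1, 45.2 and 37.6 in PFF and at 80.1, 71.4 and 66.3 in PFF+Rab5 ASO, with summit pileups of 12, 13 and 12 against 25, 19 and 18. It had a peak in 2 PBS libraries, at 39.7 and 11.3, and in 1 PFF+MLi-2 library, at 7.01. Since it was not called in every library it was outside the test, and in a test of every region called in all 6 libraries of this comparison it was higher with the antisense oligonucleotide by 1.13 ± 0.22 with an adjusted p of 0.0337 by limma, in a fit that called 3.05% of all regions. As at Ddit3, relative depth was higher in PFF+Rab5 ASO, and its part was not tested.

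Against PBS, PFF+MLi-2 had no member region past the adjusted p of limma, 0.0% of all regions, and 3 of the 23 at an unadjusted p below 0.05, against 5.77% of all regions, with 4 non-overlapping regions against 10.6% of all. PFF+Rab5 ASO had none against 1.63% of all regions, 3 of the 23 at an unadjusted p below 0.05 against 18.7%, and 4 non-overlapping regions against 22.3%. The score was higher than in PBS in 18 of the 23 member regions in PFF+MLi-2, against 50.4% of all regions, with a median difference of 0.09 SD units against 0.00, and in 10 of the 23 in PFF+Rab5 ASO, against 48.5%, with a median of -0.03 against -0.01. From PBS the Ddit3 start-site region differed by -0.01 ± 0.20 SD units in PFF+MLi-2 and by -0.37 ± 0.20 in PFF+Rab5 ASO, the latter without overlap and with an adjusted p of 0.354 by limma. Over the 4 groups together the F test of limma passed 3.5% of all regions and no member region, with 6 of the 23 at an unadjusted p below 0.05 against 21.7% of all regions. The smallest adjusted p among members was 0.0979 for the region upstream of Atf6, followed by 0.112 for the region upstream of Ddit3 and 0.136 for the Ddit3 start-site region.

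**Figure D3:**
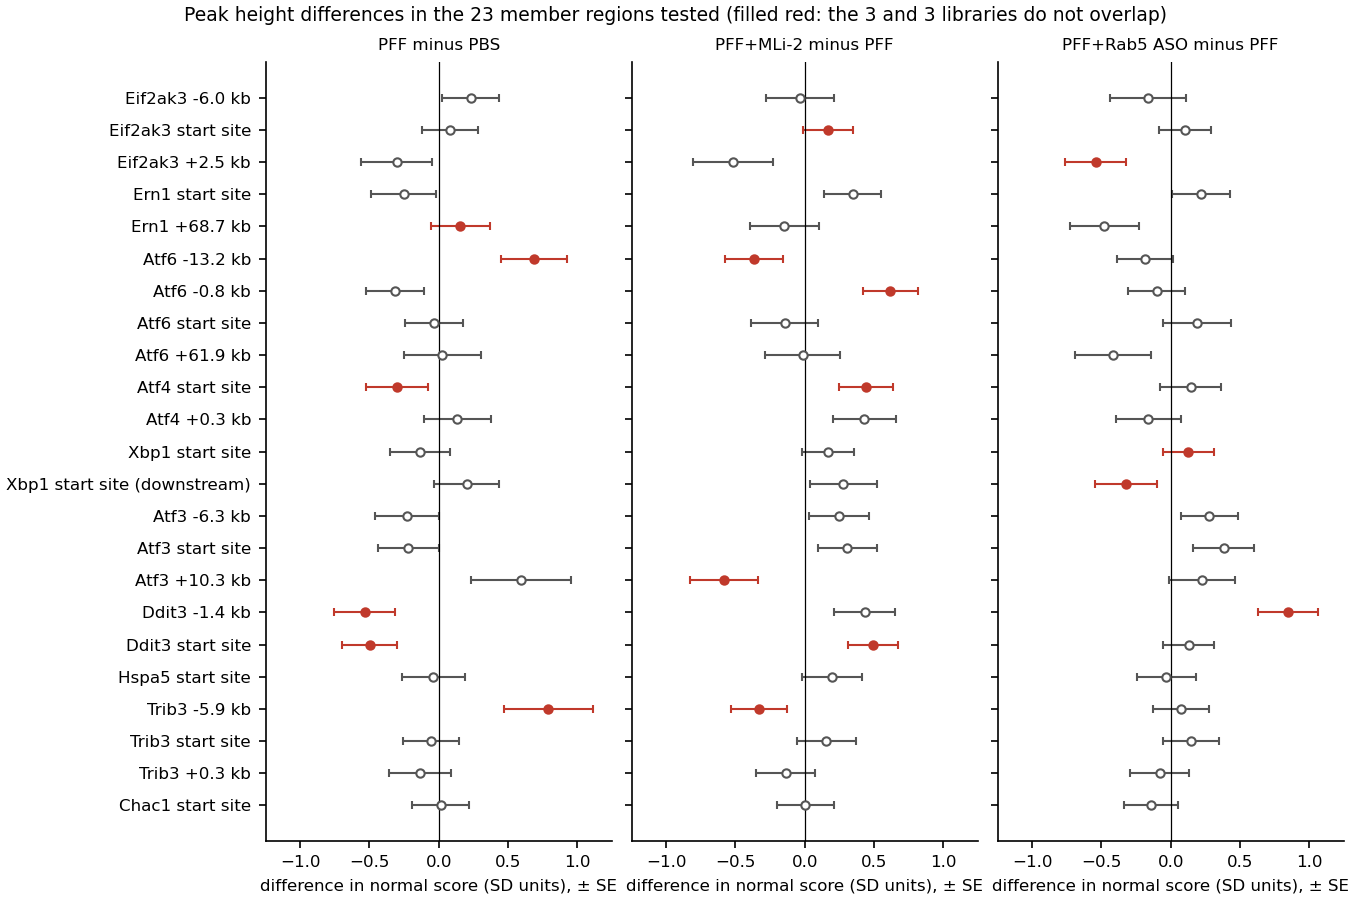
For each of the 23 tested member regions (rows, by gene and distance to the nearest start) the points give the limma difference in normal score with its SE in 3 comparisons, and filled red marks regions whose libraries do not overlap. Ddit3 lies left of 0 in PFF minus PBS (-0.50) and right of 0 in PFF+MLi-2 minus PFF (0.49), and no region passed the adjusted threshold.

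Presence of a peak was compared without a test, because 3 libraries against 3 cannot give an exact p below 0.1. A region counted as gained or lost when it had a peak in all 3 libraries of a group and in 0 of the other. In PFF against PBS no member region was gained or lost, against 1.5% of all regions with a peak in either group, and in PFF+MLi-2 against PFF none was, against 2.01%. In PFF+Rab5 ASO against PFF 2 member regions of 64 were gained and none was lost, against 4.57% of all. In PFF+MLi-2 against PBS 1 was lost, against 0.803%, and in PFF+Rab5 ASO against PBS 1 was gained, against 3.58%.

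One gained region lay in an intron of Atf6 (chr1:170843525-170843615) and was called only in the 3 PFF+Rab5 ASO libraries, at 8.69, 55.4 and 50.4 and with summit pileups of 10, 14 and 14 fragments. Its sequence is shown because it opens with tandem copies of 1 short unit. A neighbouring region (chr1:170843657-170843808) had a peak in the same 3 libraries and also in PBS replicates 1 and 3 and PFF replicate 2, and merging peaks within 100 bp ended the gain in Atf6. With a −log10 q of at least 5, or with equal numbers of top peaks, neither gain in this comparison remained.
Atf6 intronic region, chr1:170843525-170843615, - strand: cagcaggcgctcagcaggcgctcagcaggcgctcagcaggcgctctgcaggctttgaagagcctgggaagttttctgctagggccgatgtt

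The other gained region lay in an intron of Ern1 (chr11:106464503-106464594), with pileups of 11 to 13 fragments in PFF+Rab5 ASO and a peak of 13 in PBS replicate 1. The region lost in PFF+MLi-2 against PBS lay 386 bp inside Atf6 (chr1:170867258-170867385), beside the region over the start. It was called in all 3 PBS libraries at 22.9, 34.7 and 33.3, in 2 PFF libraries at 3.78 and 13.1, in no PFF+MLi-2 library and in all PFF+Rab5 ASO libraries at 51.3, 8.06 and 35.3. These calls rest on 10 to 21 fragments at the summit.

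An Atf6 region named after its values were seen (chr1:170794872-170795098), at -501 bp from the start of an internal transcript, was at 81.3, 80.4 and 78.5 in PBS, at 70.2, 56.6 and 58.0 in PFF, at 79.1, 48.4 and 67.1 in PFF+MLi-2, and 39.4 and 28.3 in PFF+Rab5 ASO, whose replicate 3 had no peak. Every PFF library lay below every PBS library, and both PFF+Rab5 ASO values lay below every PFF library. The missing peak kept this region out of the test.

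Across libraries the number of member regions with a peak was 36, 37 and 43 for PBS, 42, 43 and 44 for PFF, 37, 38 and 38 for PFF+MLi-2 and 41, 44 and 49 for PFF+Rab5 ASO. PFF was above PFF+MLi-2 without overlap and overlapped PBS. Over all regions PFF was likewise above PFF+MLi-2 and overlapped PBS, with 114371 to 155838 for PBS, 129291 to 147785 for PFF, 121668 to 123588 for PFF+MLi-2 and 131866 to 154769 for PFF+Rab5 ASO. Of the 16 regions found in 1 library 2 were from PBS, 3 from PFF, 4 from PFF+MLi-2 and 7 from PFF+Rab5 ASO (43.8%). Of all regions found in 1 library 24.3% were from PBS, 26.4% from PFF, 13.7% from PFF+MLi-2 and 35.6% from PFF+Rab5 ASO.

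**Figure D4:**
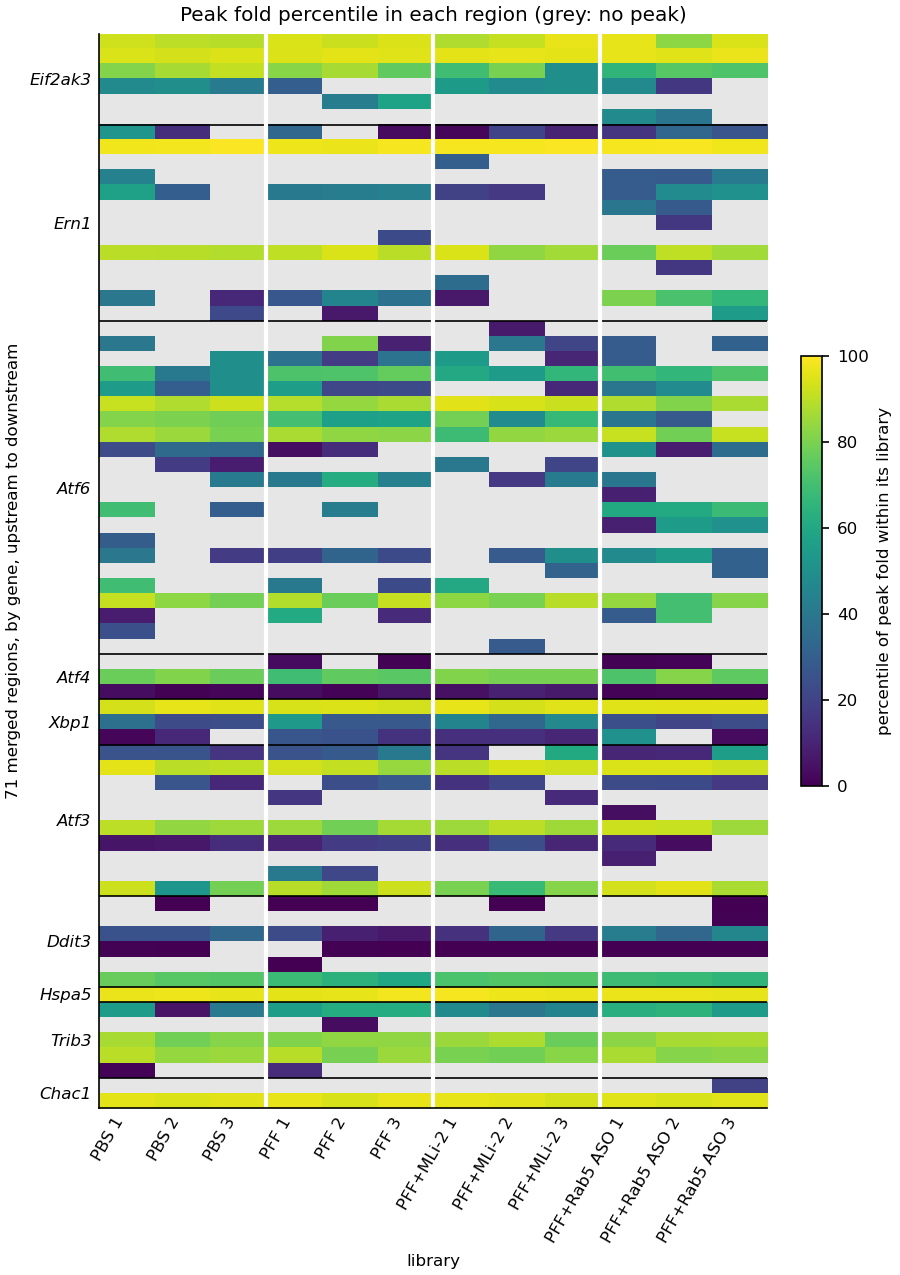
Each row is 1 of the 71 member regions, grouped by gene from upstream to downstream, each column is 1 library, and colour gives the percentile of the peak fold within the library with grey for no peak. The start-site rows are bright in all 12 columns, and most of the incomplete rows belong to Atf6 (22 regions) and Ern1 (13 regions).

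The start-site regions of the 10 genes were also read as a group beside start sites in general. In PFF against PBS 8 of the 10 had the lower score in PFF, and so did 66.9% of 12262 tested start-site regions of protein-coding genes. In PFF+MLi-2 against PFF 9 of the 10 were higher with MLi-2, against 67.8% of them, and in PFF+Rab5 ASO against PFF 6 of the 10 were higher, against 62.0%. The median differences were -0.18, 0.25 and 0.12 SD units for the 10 genes and -0.09, 0.10 and 0.07 for protein-coding start sites. The direction at these promoters was therefore the one that most start sites took, and whether the members differed from other start sites was not tested.

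Further genes of the pathway were read at their start-site regions only: other eIF2α kinases and phosphatase subunits, ATF4 targets of amino acid metabolism and transport, chaperones, folding enzymes and the components of degradation from the endoplasmic reticulum. All 50 had a start-site region with a peak in all 12 libraries. The highest mean percentiles were 99.4 for Sel1l, an adaptor of the degradation complex, and 99.1 for Eif2ak4, which encodes the amino acid sensor GCN2, and the lowest were 44.98 for Vldlr, a lipoprotein receptor gene, and 60.1 for Cebpb, a partner of ATF4. In PFF against PBS 39 of the 50 were lower in PFF (78.0%, beside the 66.9% of protein-coding start sites), and none passed the adjusted p of limma, with 2 at an unadjusted p below 0.05 (4.0%, beside 2.90% of protein-coding start sites). In PFF+MLi-2 against PFF 37 were higher and none passed, with 4 at an unadjusted p below 0.05 (8.0%, beside 4.94%). In PFF+Rab5 ASO against PFF 32 were higher and 1 passed (2.0%, beside 0.555% of protein-coding start sites and 3.82% of all regions), with 3 at an unadjusted p below 0.05 (6.0%, beside 7.70% of protein-coding start sites). The one that passed was Mbtps2, which encodes the site-2 protease that releases ATF6 from the membrane, with group means of 86.1 for PBS, 84.5 for PFF, 78.1 for PFF+MLi-2 and 96.4 for PFF+Rab5 ASO and a difference from PFF of 0.99 ± 0.23 SD units (adjusted p = 0.0463 by limma). Its percentile ran from 67.1 to 98.3 over the libraries, with a median summit pileup of 23.5 fragments. As at Ddit3 and Ern1, relative depth was higher in PFF+Rab5 ASO than in PFF, and its part was not tested.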

How the data were processed

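The deposited files were 12 peak lists, 1 per library, labelled batch 1. Per the labels, the submitters' processing notes and the study's methods, the authors called peaks with MACS2 2.2.7.1 in each library alone, after alignment to GRCm38 (Bowtie2 2.5.1) and trimming (Trim Galore 0.6.7). Its options, duplicate removal and any shift for the Tn5 offset are not given in the sources used here, and each affects peak width, number and height. The deposited values are the fold enrichment of a peak over local background (a ratio), its −log10 p-value and q-value and a score, the last unused. The files hold no read counts, so levels are ranks inside a library.

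Peaks overlapping by at least 1 bp were merged over libraries, and the highest peak represented a library in a region. The summit pileup was solved from fold and p-value, and came out whole (within 0.05) for 100% of peaks. Relative depth is the most frequent background divided by the smallest peak width. Normal scores of ranks were compared with limma 3.58.1 (R 4.3.3), which was tested on simulated data. The fits used the 6 libraries compared, without a block, and the F test used 12. Motifs and tables were made with Python 3.11.15. Regions named beyond those at the starts of the genes were those gained or lost, past the test, or among the 3 largest statistics in each of 3 comparisons (the others are said to be named after their values were seen), and other pathway genes by the 2 highest, 2 lowest and any past the test. Alternatives changed the height measure, merging, threshold, presence rule, libraries and block. The genes, lists and rules were chosen with earlier results of these data known. The study's methods treat each pregnancy as a biological replicate, with its cultures assigned at random to the groups, but the labels do not tie a replicate number to a pregnancy. Of the cell type markers examined, 1 is not reported here.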

Additional observations from a re-analysis of the deposited data

How the results depend on the processing

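The count of member regions with a height change stayed at 0 in all 5 comparisons and over the 4 groups with log2 fold, ranks of the −log10 p-value, merging within 100 bp, the replicate block (0 calls in each) and each library left out (0 to 0), except that in PFF+Rab5 ASO against PFF 1 region was called among regions with a peak in all 6 libraries (Ern1, last exon) and 1 with all 12 libraries in the fit (upstream of Ddit3). Whether the replicate numbers pair the libraries by pregnancy is not given in the labels. Same-numbered libraries deviated together only weakly, with correlations of 0.00514 to 0.0788 over all pairs of groups. In the 5 comparisons each of the 6 libraries correlated best with its own number, except in PFF against PBS, where 5 did, which is a hint of pairing from the data. Between PFF+MLi-2 and PFF+Rab5 ASO this did not hold throughout. There PFF+MLi-2 replicate 3 and PFF+Rab5 ASO replicate 1 correlated better with each other (0.0279) than with their own numbers (0.0142 and 0.0179).

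Calls of presence were unstable. Gained or lost member regions, with main counts of 0 (PFF against PBS), 0 (PFF+MLi-2 against PFF), 2 (PFF+Rab5 ASO against PFF), 1 (PFF+MLi-2 against PBS) and 1 (PFF+Rab5 ASO against PBS), became 1, 2, 0, 0 and 0 with a −log10 q of at least 5, 2, 2, 0, 2 and 0 with equal numbers of top peaks, and 4, 6, 7, 2 and 5 when 2 of 3 libraries sufficed. Under this last rule these were 7.14%, 10.3%, 10.9%, 3.64% and 8.2% of the member regions with a peak in either group, against 6.79%, 7.9%, 12.3%, 5.23% and 10.7% of all regions. The first and second rule called 0.711% to 4.95% of all regions. Merging within 100 bp left 1 in PFF+Rab5 ASO against PFF (4.92% of all regions called) and 0 against PBS (3.78%), and a cover of 25% gave 1 in PFF+MLi-2 against PFF (2.21%). With 1 library left out they ran from 0 to 2, 1 to 2, 2 to 4, 1 to 2 and 1 to 4, while this looser rule called 2.79% to 3.71%, 3.5% to 4.29%, 6.85% to 7.21%, 1.81% to 2.74% and 5.29% to 6.71% of all regions.

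The differences between start-site percentiles kept their sign in 29 of 30 cases with a −log10 q of at least 5, in 29 with merging within 100 bp and in 22 with percentiles of the −log10 p-value. In the same order, 2, 0 and 9 of the 30 differences moved by at least the pooled SD within the groups compared. With 1 PFF library left out 26 to 28 of 30 kept their sign, with 1 PBS library 8 to 10 of 10, with 1 PFF+MLi-2 library 9 to 10 of 10 and with 1 PFF+Rab5 ASO library 7 to 10 of 10. The part of depth in the calls of presence was not tested.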
